A study of Arabidopsis thaliana with 4 samples.

Results

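The lipid transfer protein superfamily of Arabidopsis thaliana was followed here through 60 loci. They were listed by locus number as members of the lipid transfer and hybrid proline-rich protein families, with earlier results of these data known. Of the 60 loci, 27 had a probe set that names that gene alone, out of 13350 genes so named on the array. Another 4 loci were reached only through probe sets that each name a pair of them, and 29 have no probe set in the annotation used. Among the 27, 19 averaged a signal of 100 or more across the arrays and were tested, and 8 lay below that level. The 29 unlisted loci include the family's best known members, such as LTP2, LTP3 and LTP4, AZI1, EARLI1, DIR1 and LTPG1, so the values below describe its less studied members.

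The arrays were single-colour Affymetrix oligonucleotide arrays, and the RNA was total RNA of whole seedlings, 2 weeks old. Plants grew on agar medium with 3% sucrose at 22 °C, in cycles of 16 h light and 8 h dark, and were not treated. There were 2 arrays of wild type (Col-0) and 2 of Col-0 plants titled as overexpressing At1g54160, the locus of NFYA5, a subunit of a CCAAT-binding transcription factor. The series design text calls the second group nfya5, a mutant. No probe set is listed for At1g54160 in the annotation used, so neither label could be checked by its level. The sample titles were followed, so "overexpressor" is the titled group, the direction of every difference rests on those titles, and the promoter of the transgene and the number of lines are not given in the labels.

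Proteins of this superfamily are small and mostly secreted, and fold around a conserved pattern of cysteines that leaves a cavity able to hold a lipid. Classical lipid transfer proteins and those tied to the membrane by a glycosylphosphatidylinositol (GPI) anchor are known for their part in the cuticle and in suberin, the lipid barriers of shoot and root. Hybrid proline-rich proteins join the cysteine domain to a proline-rich stretch and are found at the cell wall. Some of them, with the small protein DIR1, act in systemic acquired resistance, and EARLI1 is known as a cold-responsive gene.

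The 4 arrays had median signals between 181.4 and 194.1 arbitrary units, in MAS5 signals scaled to a target of 500. Log2 signals of the tested probe sets correlated at 0.9888 within wild type, at 0.9878 within the overexpressor and at 0.979 to 0.985 across groups. Tissue markers were followed because a shift in tissue mix would move genes of this superfamily too. The summed signal of 3 green tissue markers of 5 listed (RCA, LHCB4.1 and LHCB4.2) was 52233 to 55432 in wild type and 50668 to 55182 in the overexpressor arrays. That of 3 root markers of 5 (PYK10, EXP7 and EXPA18), which is nearly all PYK10, was 11818 to 12572 and 12795 to 13450. PYK10 and EXP7 each had a log2 fold change of 0.11. EXPA18 went the other way, at 169.7 and 224.6 in wild type and 130.5 and 151.3 in the overexpressor arrays. Its log2 fold change was -0.37 ± 0.17 (limma, unadjusted p = 0.053). The sum of 2 of the 4 stomatal lineage markers was 343.8 to 396.8 and 399.4 to 412.8. By limma 0 of these markers passed, and before adjustment 0 had a p under 0.05. None of the epidermis, vascular or seed markers has a listed probe set, and the part of tissue composition in the results below was not tested. In whole seedlings, fewer cells of a type and less RNA per cell cannot be told apart.

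Members moved in both directions. AT2G37870, AT4G33550 and AT5G05960, which encode small secreted proteins of the superfamily, were higher in the overexpressor arrays, by 2.34-, 1.67- and 1.504-fold on the signal + 50 scale. AT1G62510, a hybrid proline-rich protein gene, was lower, at 0.625 of the wild type level on that scale. These were the 4 of 19 tested members with an adjusted p under 0.05 by limma, adjusted over the whole array. Of all 13961 tested probe sets on the array 1.29% passed, with 0.53% higher and 0.759% lower. Since the members were chosen with earlier results of these data known, a larger share among them is not independent support. The median log2 fold change of the 19 was -0.03, against 0.016 over all tested probe sets. That median changed sign when 1 of 3 arrays was left out, to 0.14 without wild type replicate 1, 0.062 without wild type replicate 2 and 0.0094 without overexpressor replicate 2. A positive value was found in 9 members and a negative one in 10, where 53.2% of all tested probe sets were positive.

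**Figure D1:**
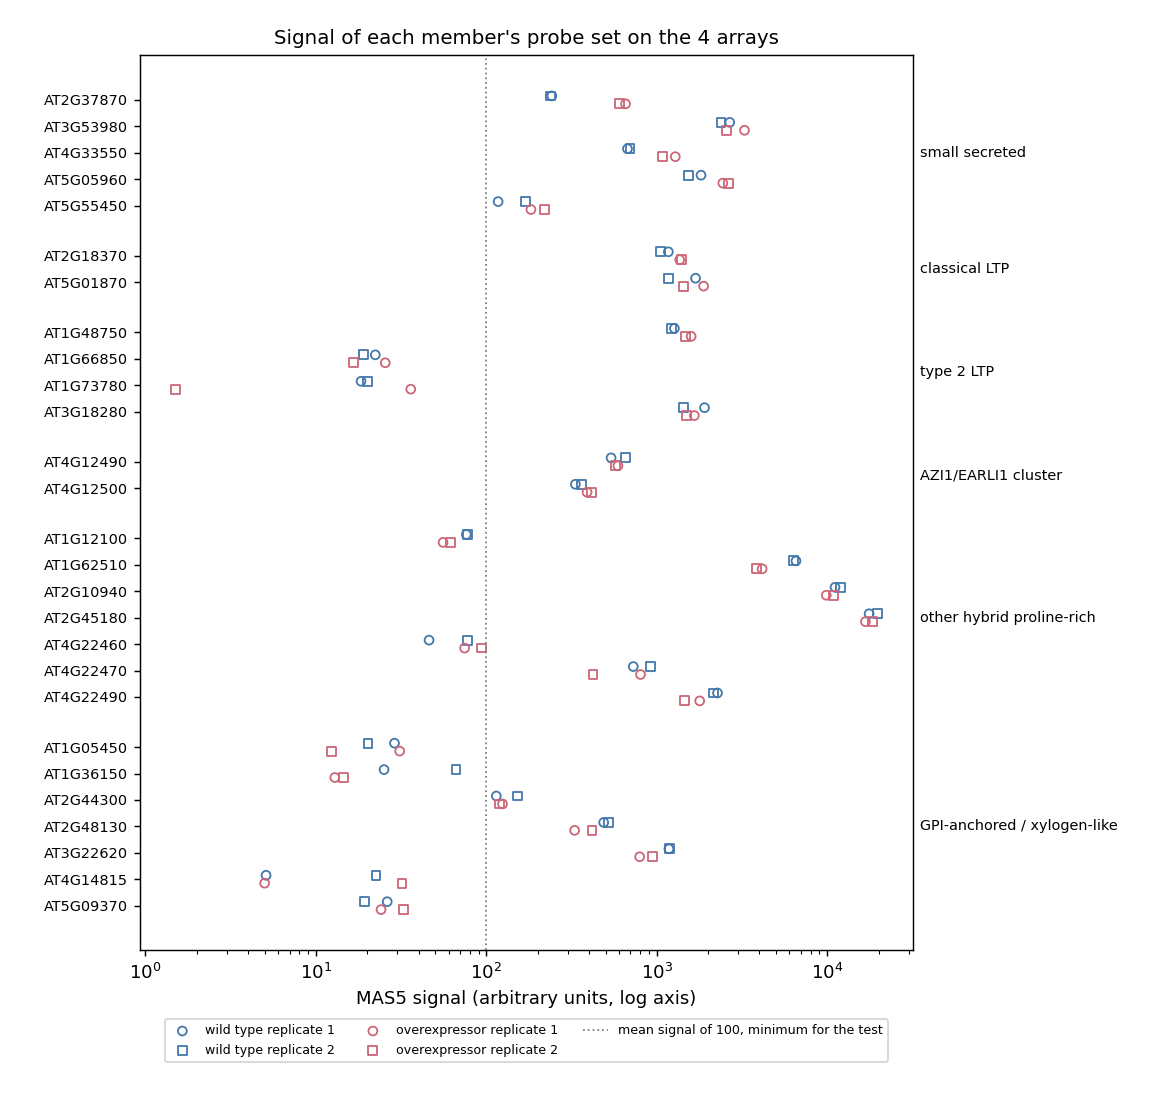
Signal of the probe set of each of the 27 members on each array, on a log axis in arbitrary units, with wild type in blue, the overexpressor in red, circles for replicate 1 and squares for replicate 2. The dotted line is the mean signal of 100 needed for the test, and the 8 members to its left were not tested. Signals of AT2G37870 and AT1G62510 form separate pairs by group, whereas those of AT2G45180 interleave.

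The small secreted members were drawn up as a group of 10 loci around DIR1, a protein that carries the long-distance signal of systemic acquired resistance, together with members that belong to no other type used here. In this group 5 loci had a probe set of their own, and all 5 were tested. They had positive log2 fold changes, with a median of 0.59, and 3 of them passed as higher. Of all tested probe sets 53.2% were positive and 0.53% passed as higher. The types were drawn up with earlier results of these data known, so a shared sign within a type is not independent support. How similar their sequences are was not analysed here.

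AT2G37870 read 242.1 and 238.8 on the wild type arrays and 655.2 and 603.1 on the overexpressor arrays. The groups were far apart: every overexpressor array lay 2.49 to 2.74 times above every wild type array. The log2 fold change was 1.22 ± 0.12 (SE, limma, adjusted p = 0.0024), with a 95% confidence interval from 0.96 to 1.49. It had the smallest p of the 19 members and rank 4 of all tested probe sets by p. Its value was between 1.17 and 1.28 with any 1 array left out, and it passed in each of these fits. It did not pass when probe sets of any signal entered the fit (limma, adjusted p = 0.11), nor did AT4G33550, AT5G05960 and AT1G62510, at adjusted p of 0.18, 0.22 and 0.16. With a constant variance prior AT2G37870 passed (adjusted p = 0.027) and those 3 did not, at adjusted p of 0.11, 0.13 and 0.11.

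AT4G33550 had 672.8 and 696.2 in wild type and 1283.4 and 1079 in the overexpressor arrays. The groups did not overlap, and the lowest of the 4 array-to-array ratios was 1.55. The log2 fold change was 0.74 ± 0.11 (SE, limma, adjusted p = 0.016), and it was 0.62 without overexpressor replicate 1, the higher of its pair. AT5G05960 read 1817 and 1535 in wild type and 2439 and 2641 in the overexpressor arrays. Here too both overexpressor arrays exceeded both wild type arrays, with a log2 fold change of 0.59 ± 0.11 (SE, limma, adjusted p = 0.028). It was closest to the threshold without wild type replicate 2, where the value was 0.47 (adjusted p = 0.042).

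The 2 other tested genes of this group did not pass. AT5G55450, a gene whose overexpression in Arabidopsis has been tied to tolerance of a fungal toxin, had 117.2 and 170.1 in wild type and 182.6 and 219.3 in the overexpressor arrays. The groups were separate, but the gap of 170.1 to 182.6 was narrower than the spread within either group, and the log2 fold change of 0.38 ± 0.18 did not pass (limma, adjusted p = 0.31). AT3G53980 had signals of 2678 and 2379 against 3270 and 2552, so that the groups overlapped. Its log2 fold change was 0.19 ± 0.12 (adjusted p = 0.47), and without overexpressor replicate 1, its highest array, it was 0.016.

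Classical lipid transfer proteins are secreted carriers, known above all from the epidermis. Of 11 loci 2 had a listed probe set, and neither passed. AT2G18370 had 1168 and 1047 in wild type and 1363 and 1399 in the overexpressor arrays. Both overexpressor arrays were above both wild type arrays, and the log2 fold change was 0.31 ± 0.10 (SE, limma, unadjusted p = 0.011, adjusted p = 0.16). AT5G01870 varied more between replicates than between groups, at 1688 and 1175 against 1882 and 1436. Its log2 fold change of 0.22 ± 0.16 (adjusted p = 0.56) turned to -0.037 without wild type replicate 2, its lowest array.

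The type 2 lipid transfer proteins are a shorter class of the same fold. All 4 of their loci had a probe set, of which 2 were tested. AT1G48750 read 1268 and 1213 in wild type and 1590 and 1465 in the overexpressor arrays. The groups were separate, with a log2 fold change of 0.29 ± 0.10 (SE, limma, unadjusted p = 0.013, adjusted p = 0.17). AT3G18280 had 1905 and 1427 against 1660 and 1499, so the wild type arrays enclosed the overexpressor ones, and its log2 fold change was -0.06 ± 0.13. The other pair, AT1G66850 and AT1G73780, was dim on every array, between 1.5 and 36.

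**Figure D2:**
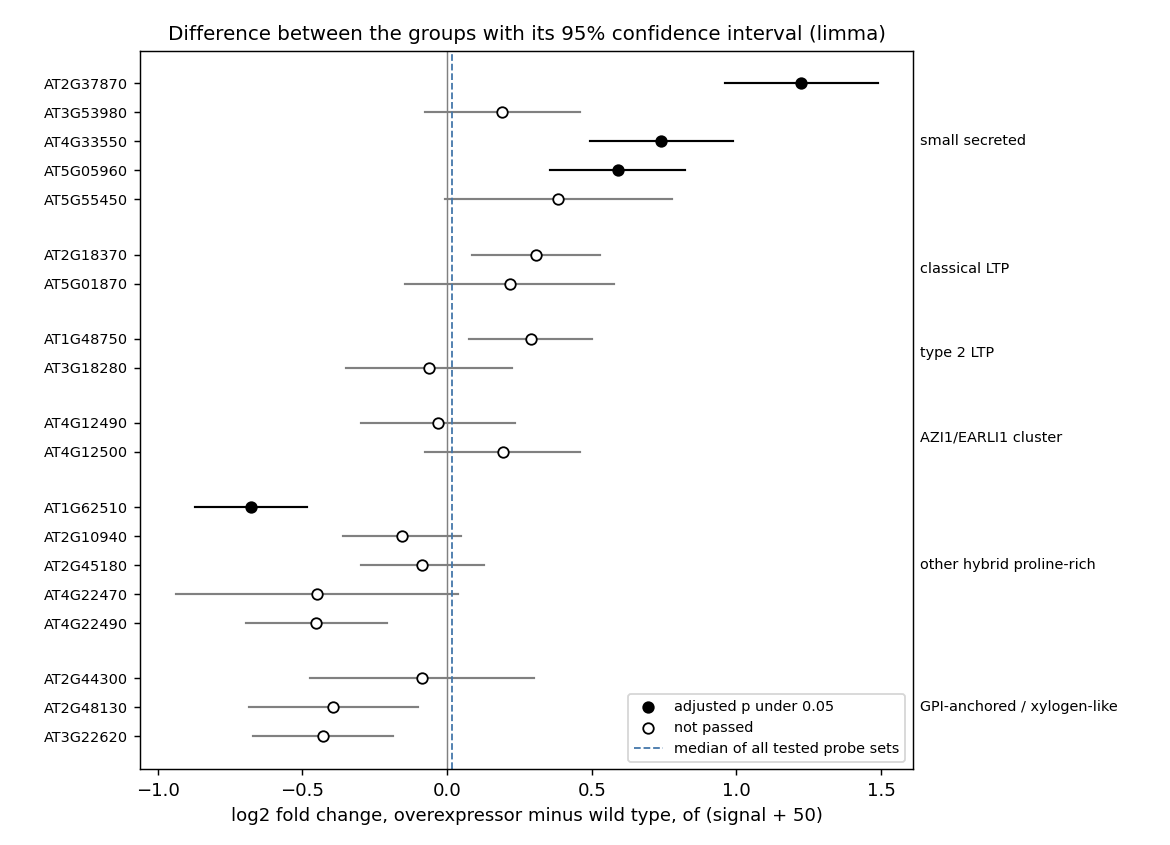
Log2 fold change of each of the 19 tested members, overexpressor minus wild type on the log2(signal + 50) scale, with its 95% confidence interval from limma, by protein type. Filled points are the 4 members that passed an adjusted p of 0.05, and the dashed line is the median of all tested probe sets. The 5 small secreted members lie to the right of 0, and the 5 tested hybrid proline-rich members outside the AZI1/EARLI1 cluster and the 3 GPI-anchored or xylogen-like members lie to its left. The types were drawn up with earlier results of these data known.

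The hybrid proline-rich members fell into a cluster of 7 loci around AZI1 and EARLI1 on chromosome 4 and 10 loci elsewhere. AZI1 and its close relatives help to move the lipid-derived signal azelaic acid during systemic acquired resistance. In the cluster 2 members had a probe set of their own, both were tested, and neither passed. AT4G12490 (AZI3) had 539.1 and 657.1 in wild type and 591 and 572 in the overexpressor arrays, which lay between the wild type values (log2 fold change -0.03 ± 0.12, with a 95% confidence interval from -0.30 to 0.24). AT4G12500 (AZI4) had 332.9 and 359.7 against 389.6 and 415.5. These groups were separate, by a log2 fold change of 0.19 ± 0.12 (limma, adjusted p = 0.47). Its neighbours AT4G12510 and AT4G12520 share 1 probe set, which read 382.5 and 457.2 in wild type and 519.7 and 583.2 in the overexpressor arrays. That shared signal had a log2 fold change of 0.36 ± 0.13 and did not pass (limma, unadjusted p = 0.016, adjusted p = 0.19), and which of the pair it comes from cannot be told apart.

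Of the 10 hybrid proline-rich loci elsewhere 7 had a probe set of their own and 5 were tested. All 5 had negative log2 fold changes, with a median of -0.45, and 1 passed as lower. Of all tested probe sets 53.2% were positive and 0.759% passed as lower. This type too was drawn up with earlier results known. AT1G62510 read 6553 and 6321 in wild type and 4149 and 3866 in the overexpressor arrays. The replicates of each group were close, and each overexpressor array was at 0.59 to 0.656 of a wild type array. The log2 fold change was -0.68 ± 0.09 (SE, limma, adjusted p = 0.0090), with a 95% confidence interval from -0.87 to -0.48, and it passed with any 1 array left out, at -0.73 to -0.63.

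AT4G22490 and AT4G22470 lie near each other on chromosome 4, with 2 protein-coding genes between them in the TAIR10.1 assembly. AT4G22490 had 2270 and 2163 in wild type and 1785 and 1446 in the overexpressor arrays. The groups were separate, but the log2 fold change of -0.45 ± 0.11 did not pass (limma, unadjusted p = 0.0019, adjusted p = 0.077). It did pass without overexpressor replicate 1, at -0.60 (adjusted p = 0.0094). AT4G22470, whose protein carries a doubled cysteine domain, had 727.6 and 916.9 in wild type and 802.4 and 422.4 in the overexpressor arrays. Overexpressor replicate 2 alone was low: the log2 fold change of -0.45 ± 0.22 (adjusted p = 0.34) was -0.025 without that array. Without overexpressor replicate 1 the value of the same gene was -0.88. Their neighbour AT4G22460 was below the test's minimum, at 46.1 and 77.2 in wild type and 74.5 and 93.7 in the overexpressor arrays.

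The other tested members of this type were AT2G10940 and AT2G45180. AT2G10940 had 11105 and 11995 in wild type and 9864 and 10874 in the overexpressor arrays. The groups were separate by a small gap, with a log2 fold change of -0.16 ± 0.09 (limma, adjusted p = 0.44). AT2G45180, which has been tied to disease responses in Arabidopsis, had 17605 and 19713 against 16750 and 18404, and its groups overlapped (log2 fold change -0.09 ± 0.10, with a 95% confidence interval from -0.30 to 0.13). AT1G12100, below the minimum, read 76.3 and 77.6 in wild type and 55.7 and 61.6 in the overexpressor arrays. AT5G46890 and AT5G46900, neighbours on chromosome 5, share a probe set that read 513.7 and 539.8 in wild type and 332.8 and 448.7 in the overexpressor arrays. That shared signal had a log2 fold change of -0.40 ± 0.14 and did not pass (limma, unadjusted p = 0.016, adjusted p = 0.19).

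The GPI-anchored and xylogen-like members hold proteins that stay at the outer face of the plasma membrane or in the wall. Of 18 loci 7 had a probe set and 3 were tested. All 3 had negative log2 fold changes, with a median of -0.39, and 0 passed by limma. Before adjustment 2 were under 0.05, against 16.5% of all tested probe sets. Of all tested probe sets 53.2% were positive. As with the other types, this one was drawn up with earlier results known, so its shared sign is not independent support. AT3G22620 had 1178 and 1192 in wild type and 793.1 and 946.8 in the overexpressor arrays. The groups were separate, and the log2 fold change of -0.43 ± 0.11 (SE, limma, unadjusted p = 0.0025, adjusted p = 0.086) passed without overexpressor replicate 2, at -0.55 (adjusted p = 0.017). AT2G48130, which has a known part in seed coat suberin, had 487.8 and 517.8 against 329.5 and 416.5. Both overexpressor arrays were lower than both wild type arrays, with a log2 fold change of -0.39 ± 0.13 (limma, unadjusted p = 0.013, adjusted p = 0.17). AT2G44300 had 114.4 and 152.3 against 124.4 and 118.8, within the wild type range (log2 fold change -0.09 ± 0.18).

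**Figure D3:**
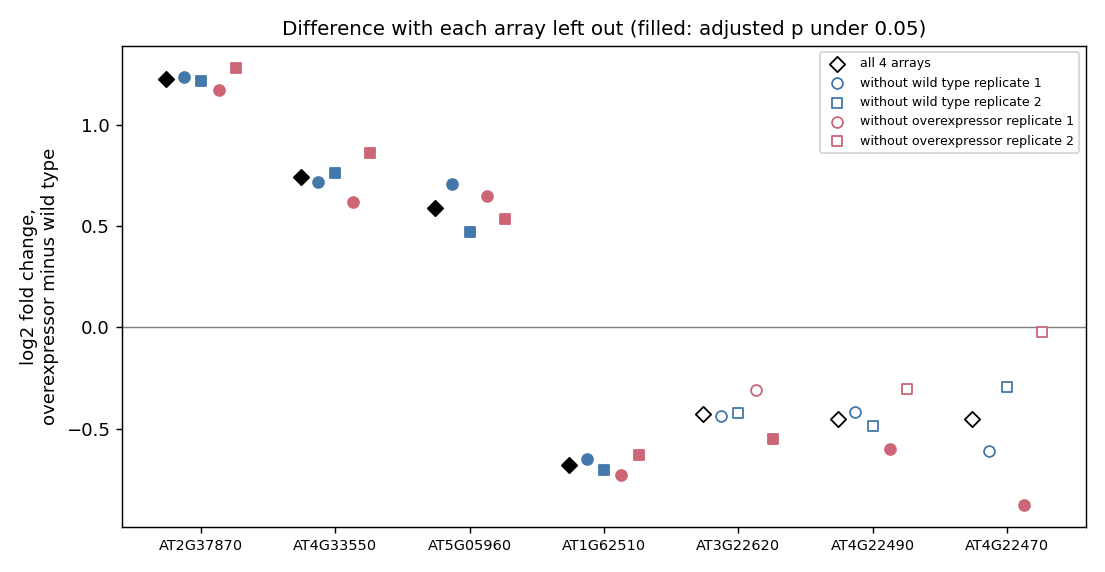
Log2 fold change, overexpressor minus wild type, of the 4 members that passed and of 3 others that passed with 1 of the arrays left out, with all 4 arrays (diamonds) and without each array in turn. Filled symbols passed an adjusted p of 0.05. Each fit with an array left out has 1 array in 1 of its groups. The 4 members on the left stay filled throughout, and AT4G22470 runs from -0.025 to -0.88 depending on which overexpressor array is kept.

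Members below the minimum of 100 had signals for which no difference was tested. The dimmest tested member, AT2G44300, had a mean signal of 127.5 and the brightest untested one, AT4G22460, 72.88. AT1G36150 read 25.1 and 66.4 in wild type and 12.9 and 14.5 in the overexpressor arrays. Its groups did not overlap, but the gap of 14.5 to 25.1 was narrower than the spread in wild type. Those of AT1G12100 did not overlap either, and 48.1% of all tested probe sets were separated in this way. The 3 remaining GPI-anchored or xylogen-like genes, AT1G05450, AT4G14815 and AT5G09370, read between 5 and 32.6 with overlapping groups. MAS5 detection calls were not used here, so none of these can be called absent.

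Over the 19 tested members, 12 had groups that did not overlap, 7 of them higher and 5 lower in the overexpressor arrays, where 48.1% of all tested probe sets were separated in this way. An unadjusted p under 0.05 was found in 9 members, against 16.5% of all tested probe sets, with 5 of the 9 positive and 4 negative. The median size of the log2 fold change was 0.31 among the members and 0.13 over all tested probe sets. Between the replicates of a group, the median gap in log2 signal was 0.15 in wild type and 0.14 in the overexpressor for the members, close to the 0.13 and 0.12 of all tested probe sets. A log2 fold change of at least 0.5 in size was found in 4 members, the same 4 that passed, and in 3.15% of all tested probe sets. Because the members were chosen with earlier results of these data known, such contrasts with the whole array are not independent support.

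Genes of the processes in which these proteins act were reached in small numbers. Of 21 genes of systemic acquired resistance 2 were tested, and 0 passed by limma, with 0 under 0.05 before adjustment. SARD4, an enzyme gene of pipecolic acid synthesis, had 122.5 and 98.7 in wild type and 141.1 and 162.7 on the others, a log2 fold change of 0.33 ± 0.17 (limma, adjusted p = 0.37). LLP1, a lectin gene that acts with AZI1, was high on 1 array: it read 119.4 and 140 in wild type and 322.3 and 128.3 on the others, a log2 fold change of 0.52 ± 0.28 (limma, adjusted p = 0.38). Of 15 cold and abscisic acid response genes 4 were tested. Of these, 2 were higher (COR15A and COR15B, at 1.15 and 1.17 on the log2 scale) and 1 was lower (LTI30, -0.68). COR47, at -0.46, did not pass (limma, unadjusted p = 0.0017, adjusted p = 0.074). Before adjustment all 4 were under 0.05, against 16.5% of all tested probe sets, and 1.29% of all tested probe sets passed. The list was drawn up with earlier results of these data known. In the cuticle list 2 of 35 genes, WSD1 and SHN3, had a listed probe set, and both were below the minimum, between 0.8 and 45.5. For suberin, with 17 genes, and for 7 proline-rich and extensin wall proteins, 0 had a listed probe set.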

How the data were processed

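The 4 arrays were grouped by sample title. The deposited values are intensities on a linear scale, MAS5 signals per the submitters' processing notes, scaled to a target of 500 per the labels. Its version is not given in the sources used here. Global scaling hides a change shared by most transcripts. Of 22810 probe sets, 13513 named 1 gene in the supplied platform annotation, 503 several and 8730 none, and 64 were controls. Symbols came from the TAIR10.1 gene table, and 27 of 60 members had a probe set naming them alone.

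After 50 was added, log2 signals of the 13961 probe sets other than controls with a mean signal of at least 100 were compared between the groups by a linear model (limma 3.58.1, under R 4.3.3), whose variance prior followed intensity. The test was two-sided, with Benjamini-Hochberg adjustment over all tested probe sets. With 2 arrays a group, exact permutation cannot go below p = 0.333, so none was made. The script was tested on simulated data. No label says that replicates were separate cultures, so the p-values rest on the spread among these arrays alone, and that may be technical. The number of arrays limits the precision.

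The members, their types and the gene lists were chosen with earlier results of these data known. Every member with a probe set is named. Full statistics are given for those that passed, the 6 with the largest change and the member with the smallest p of each type, and of each gene list the genes that passed or the 2 with the smallest p. Alternatives were other pseudocounts, filters, normalizations and variance priors, a replicate block, each array left out, and unshared probe sets only. Planned sequence comparisons of the members were not made.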

Additional observations from a re-analysis of the deposited data

How the results depend on the processing

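AT2G37870 passed under 14 of 15 alternatives, and AT4G33550, AT5G05960 and AT1G62510 under 13 each. With no filter on dim probe sets 0 members and 1 probe set in all passed in limma's test, and AT2G37870 had an adjusted p of 0.108. With a constant variance prior 1 member (AT2G37870) and 9 probe sets passed. Median centring gave 6 members, adding AT4G22490 and AT3G22620, and 380 probe sets. With 1 array left out, 4 to 6 members and 101 to 489 probe sets passed (101 without wild type replicate 1, 333 without wild type replicate 2, 489 without overexpressor replicate 2). The replicate numbers are not known to pair the arrays, and deviations of same-numbered arrays correlated at 0.056. With the number as a replicate block, which leaves 1 residual degree of freedom, 8 members (3 higher, 5 lower) and 1075 probe sets passed. Signs turned with an array left out, never in a call, for AT3G18280 (log2 fold changes from -0.26 without wild type replicate 2 to 0.14 without wild type replicate 1, and 0.0094 without overexpressor replicate 2). They also turned without wild type replicate 2 for AT5G01870 (-0.037, up to 0.47 without wild type replicate 1), AT4G12490 (0.10, down to -0.16) and AT2G44300 (0.062, down to -0.24). The causes were not tested.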
